A study of Mus musculus with 43 samples.

Results

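The cytosolic ribosomal protein genes were followed through both expression tables of PD798 cells, which were grown out of the pancreatic tumor of a KPCY animal (with Pdx1-cre, p53 L/+ and the YFP reporter Rosa YFP/YFP among its alleles). The genes were taken by symbol: Rpl or Rps followed by a digit, with Rplp0, Rplp1, Rplp2 and Rpsa, and without the S6 kinases (Rps6k) and symbols with -ps. This gave 84 genes, of which 82 stood in both tables, 83 among the 13845 genes of the processing experiment and 83 among the 13817 genes of the input series. Rpl3l was listed in the former table alone and Rps4l in the latter alone. There were 50 names of the large subunit and 34 of the small one. The symbol rule also took Rps19bp1, which encodes a nucleolar protein that binds Rps19 and is no ribosomal protein, and Rpl37rt and Rps4l, which the GENCODE annotation lists as transcribed processed pseudogenes.

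The ribosome carries out protein synthesis, and each of its subunits is built in the nucleolus from ribosomal RNA and proteins that are needed in equal numbers. The mRNAs of these proteins are short and among the most abundant of a growing cell, and many begin with an unbroken stretch of pyrimidines at the cap (5' TOP), through which mTORC1 signalling controls their translation. Processed pseudogenes of ribosomal protein genes are very common in mammalian genomes, so that short reads from these mRNAs often match more than 1 place.

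In the processing experiment bulk RNA of cultured PD798 cells was profiled in 12 libraries, 3 for each of 4 conditions. Pre-FACS cells were banked before sorting and were not treated. Mock cells stood in staining buffer on the benchtop at room temperature for the same time. Pre-enriched cells were given magnetic particles and red cell lysis buffer and passed the pre-enrichment platform before the BD Influx sorter. The study describes FACS-only cells as the same sample, sorted on the Influx without the pre-enrichment step. In the input series, PD798 cells spiked into mouse blood were pre-enriched and sorted by YFP into 11 single cells, 12 pools of 10 cells and 6 pools of 100 cells, and 2 libraries were made from RNA of the bulk line. The labels mention spiking into blood for all samples and pre-enrichment also for the bulk RNA, which the methods of the study do not, and this was not settled here. PD798 is a single line, the labels do not say whether replicates came from separate cultures, and p-values therefore measure the spread between these samples, which may be technical.

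All values are TPM (transcripts scaled to a fixed total), a unit that corrects for gene length, so that a gene can stand higher because other RNA stands lower. TPM holds no read numbers, so the depth of each library cannot be read from the tables. In the processing experiment the listed genes make up the whole total in each library, and in the input series 54.2% to 99.99% of it. The epithelial markers (7 of 7 listed) summed to between 23901 and 27360 TPM in the processing experiment and between 3463 and 32339 TPM in the input series. Keratins had the highest values, so the sums do not speak for each marker. The lowest marker reached at most 7.65 TPM in the processing experiment, but 586 TPM in bulk RNA of the input series. Another reached 939 TPM in this bulk RNA and at most 263 TPM in 100-cell pools. Of 26 blood markers 6 and 8 were listed, with sums of up to 14.1 and 322 TPM. Single cells 1 to 4 go against the rest of the input series: all 47 genes on the X chromosome that reached 100 TPM in each bulk RNA library are listed at 0 in each of these 4 cells, compared with between 0 and 8 in the other cells.

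The mRNA starts are shown because the pyrimidine stretch is the sequence feature that the family is known for and that the symbol rule did not use. RefSeq starts (GRCm38.p6) were matched for 63 of the 84 genes. A C followed by 5 or more C or T, beginning no more than 10 bases from the start, was present for 33 of these 63 genes (52.38%), compared with 21.87% of all 27025 genes with a start. On the other strand the share was 9.524% for the ribosomal protein genes and 25.19% for all genes. A gene counted if any of its listed starts had the stretch, which could lie before the start. The starts used in these cells were not measured. Genes without the stretch here may therefore still begin with pyrimidines, and the split is no call of 5' TOP mRNAs. The windows below run from 10 bases before the start to 20 bases from it, with the pyrimidine stretch in capitals. They show genes that return in the results. The paralogs Rps27 and Rps27l, Rpl22l1, Rpl35, Rpl15 and Rps6 have the stretch in the window shown, and Rplp0, Rpl4 and Rps15 do not. For Rps27l the capitals lie wholly before the annotated start, and its other listed start has no such stretch.
Rps27 (chr3:90213629-90213658, minus strand): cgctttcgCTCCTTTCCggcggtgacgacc
Rps27l (chr9:66946076-66946105, plus strand): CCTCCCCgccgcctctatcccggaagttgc
Rpl22l1 (chr3:28805498-28805527, plus strand): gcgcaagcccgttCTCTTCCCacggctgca
Rpl35 (chr2:39005112-39005141, minus strand): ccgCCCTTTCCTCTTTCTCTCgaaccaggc
Rpl15 (chr14:18270967-18270996, minus strand): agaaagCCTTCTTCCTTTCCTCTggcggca
Rps6 (chr4:86857348-86857377, minus strand): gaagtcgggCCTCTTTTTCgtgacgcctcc
Rplp0 (chr5:115559457-115559486, plus strand): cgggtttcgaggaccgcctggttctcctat
Rpl4 (chr9:64173377-64173406, plus strand): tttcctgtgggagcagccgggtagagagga
Rps15 (chr10:80292421-80292450, plus strand): cagagctcgcgataactgcgcaagcgcagc

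In bulk RNA of the input series the family ranged from 2.42 to 1738 TPM. The highest means were those of Rplp0, the base of the ribosomal stalk (1738 TPM, 1718 and 1758 in the 2 libraries), Rpl4 (1512 TPM), Rpl32 (1189 TPM), Rps27l (1130 TPM) and Rpl13 (1076 TPM). These 5 were the genes above 1000 TPM, and 74 of the 83 genes reached 100 TPM. The lowest were Rpl30 (2.19 and 2.65 TPM), Rps27 (2.89 and 3.81 TPM) and Rpl34 (7.55 and 10.0 TPM). The order of the genes was close between the 2 libraries (Spearman's rho 0.998 across 83 genes) and close to that of the mean of the 12 processing libraries (0.950 across 82 genes). Genes are not independent replicates, and these rho are descriptions.

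Sequence shared with other genes was measured on the principal transcript as the share of its words of 75 bases, the read length, that also occur in another annotated transcript. The share had a median of 50.3% and was 50% or more for 43 of the 84 genes. It was 98.5% for Rps27, 65.1% for Rpl30 and 41.4% for Rpl34, but also 79.6% for Rpl13, and across 83 genes it had a rho of -0.19 with the bulk RNA level. Rpl3l, Rps19bp1 and Rps3 were among the genes that shared no such word. How reads with several matches were counted is not given in the sources used here, so the level of a gene with shared words is uncertain, and its part in the differences was not tested.

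The split between paralogs differed from pair to pair. Rps27l, a p53-responsive paralog of Rps27, held 98.1% to 99.3% of the TPM of the pair over the processing libraries and 99.2% to 100% over the input libraries. Rpl22l1 held 77.0% to 81.0% of the pair with Rpl22 in the processing experiment, 81.2% and 81.4% in bulk RNA and 80.0% to 88.3% in 10-cell pools. Rpl36al and its X-linked relative Rpl36a stood near each other, with 46.1% to 54.6% for Rpl36al in the processing experiment and 53.3% and 55.2% in bulk RNA. Rpl7l1 held 20.7% to 23.8% of the pair with Rpl7 in the processing experiment, 20.8% and 21.0% in bulk RNA and 11.9% to 21.8% in 10-cell pools. Rpl3l, the paralog of Rpl3 in muscle, reached 1.32 TPM at most in the processing libraries and 0.234% of the pair. Rps4l held 6.15% and 8.79% of the pair with Rps4x in bulk RNA and 1.32% to 14.0% in 10-cell pools. Words shared within a pair were not counted separately. Apart from Rpl3l, which shares none, these genes share words with other annotated transcripts, from 4.21% for Rpl7l1 to 98.5% for Rps27. The split between such paralogs is therefore also uncertain.

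The first comparison asked whether holding, sorting or pre-enrichment altered the family. As a sum the 83 genes took 2.45%, 2.60% and 3.30% of all TPM in the Pre-FACS libraries, 2.58%, 2.59% and 2.73% in Mock, 2.52%, 2.58% and 3.14% in FACS-only and 2.81%, 2.84% and 2.85% in Pre-enriched. Replicate 1 of Pre-FACS and replicate 1 of FACS-only stood above the other 10 libraries, and the 3 Pre-enriched libraries stood above the 3 Mock libraries. The large subunit held 136% to 146% of the sum of the small one in all 12 libraries, with the lowest values in the same 2 libraries of replicate 1. Mitochondrial ribosomal protein genes, a separate set of 77 nuclear genes, summed to 0.628% to 0.731%, and were also highest in these 2 libraries.

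**Figure D1:**
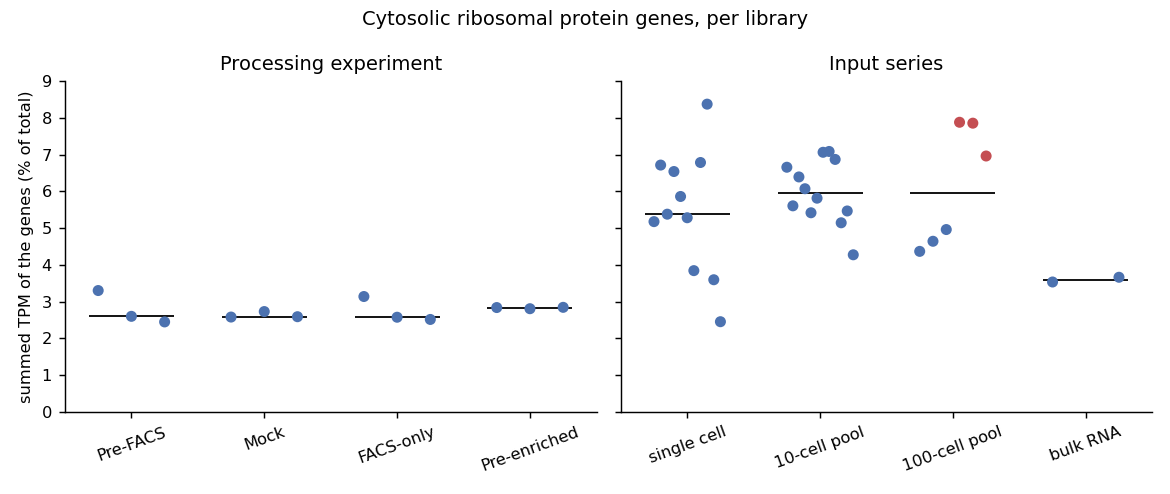
Summed TPM of the cytosolic ribosomal protein genes in each library, as a percent of the fixed total (y axis from 0), by condition in the processing experiment (left) and by input (right). Each point is 1 library in the order of its replicate number, the line is the median of the group, and red points are 100-cell pools 4 to 6, which lie between 6.96% and 7.88%, above pools 1 to 3 (4.37% to 4.96%) and bulk RNA (3.53% and 3.66%).

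No gene of the family was called at an adjusted p under 0.05 (limma on log2(TPM + 1), 12159 genes, Benjamini-Hochberg) by the F test over the 4 conditions or by any of the 6 pairs. All 83 genes passed the filter of 1 TPM in 3 libraries. Over all genes 0.107% were called by the F test, 0.0493% in Pre-enriched against Pre-FACS, 0.123% in FACS-only against Pre-FACS and 0.00822% in Mock against Pre-FACS, and none (0%) in the other 3 pairs, so that a count of 0 of 83 is near the background. At an unadjusted p under 0.05 limma gave 0 of 83 genes in the F test, compared with 7.56% of all genes, and 0 or 1 of 83 in each pair, compared with 4.53% to 9.18% of all genes. The median standard error of a member's difference was 0.11 on the log2 scale.

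The 5 genes of lowest p in the F test by limma were Rpl38, Rps27, Rps19bp1, Rplp0 and Rps27l, with adjusted p of 0.75 to 0.81. Rpl38, a small protein of the large subunit known for the patterned translation of Hox mRNAs in the embryo, was at 232, 154 and 150 TPM in Pre-FACS, 135, 160 and 139 TPM in Mock, 222, 171 and 157 TPM in FACS-only and 165, 178 and 170 TPM in Pre-enriched. All Mock values but the second lay under those of the other conditions. Its difference was 0.33 (SE 0.14) in FACS-only against Mock, with an adjusted p of 0.87 by limma. It was -0.27 (SE 0.14) in Mock against Pre-FACS, with an adjusted p of 1.00.

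Rps27l was at 441, 348 and 330 TPM in Pre-FACS, 316, 342 and 323 TPM in Mock, 417, 330 and 299 TPM in FACS-only and 304, 349 and 293 TPM in Pre-enriched. The groups overlapped, and the difference of -0.23 (SE 0.11) in Pre-enriched against Pre-FACS had an adjusted p of 0.55 by limma. Rplp0 was at 1486, 1453 and 1511 TPM in Pre-enriched and at 1400, 1386 and 1358 TPM in FACS-only, groups that did not overlap, with a difference of 0.10 (SE 0.05) and an adjusted p of 0.73. Rps19bp1 was at 80.4, 77.6 and 75.5 TPM in Pre-enriched and 65.7, 74.6 and 63.8 TPM in Mock, with a difference of 0.19 (SE 0.09) and an adjusted p of 0.66. Rps27 lay between 2.54 and 5.90 TPM over the 12 libraries.

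The remaining genes named by lowest p in a pair also missed the threshold. In FACS-only against Pre-FACS these were Rpl37rt (0.41, SE 0.22) and Rpl30 (0.52, SE 0.28), both at 12.0 TPM or less, with adjusted p of 0.77 by limma. In Pre-enriched against Pre-FACS it was Rpl3 (0.11, SE 0.06, adjusted p = 0.63 by limma), in Pre-enriched against FACS-only Rpl7 (0.10, SE 0.06, adjusted p = 0.82) and in FACS-only against Mock Rpl29 (0.18, SE 0.10, adjusted p = 0.93).

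The members moved together by small amounts, and for 5 of the 6 pairs the direction depended on single libraries. In Pre-enriched against Mock the median difference was 0.11, beside -0.01 for all genes, with 78 of 83 genes above 0 and an SD of 0.07 between genes. For 43 of the 83 genes (51.8%) the 3 Pre-enriched values all lay above the 3 Mock values, beside 6.6% of all genes, and for no gene all below, beside 8.81%. Leaving out each of the 12 libraries in turn kept this median between 0.10 and 0.13. Since the genes of a library share its RNA, this is a property of 6 libraries and not of 83 separate observations.

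In Mock against Pre-FACS the median was -0.08 and became 0.06 without Pre-FACS replicate 1. In FACS-only against Pre-FACS it was -0.01, ranging from -0.11 without FACS-only replicate 1 to 0.13 without Pre-FACS replicate 1. In Pre-enriched against Pre-FACS it was 0.04, ranging from -0.05 without Pre-FACS replicate 3 to 0.17 without Pre-FACS replicate 1. In Pre-enriched against FACS-only it was 0.05, ranging from -0.02 without FACS-only replicate 3 to 0.16 without FACS-only replicate 1. In FACS-only against Mock it was 0.08, ranging from -0.04 without FACS-only replicate 1 to 0.15 without FACS-only replicate 3. In Pre-enriched against FACS-only, 4 of the 83 genes (4.82%) had all values above, beside 4.91% of all genes.

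**Figure D2:**
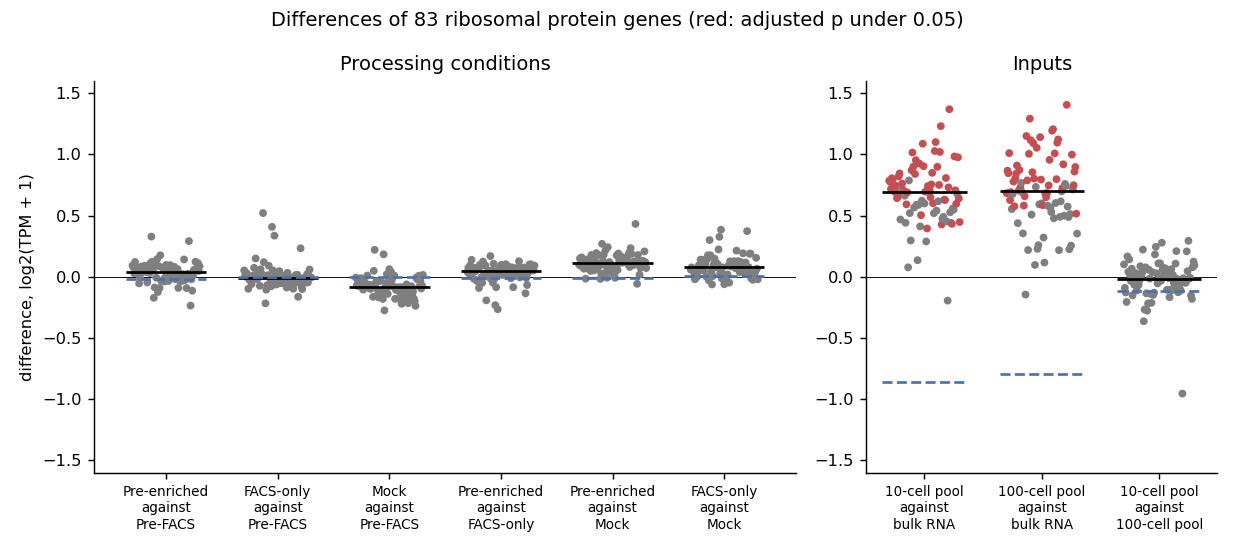
Difference of each of the 83 genes in log2(TPM + 1) for the 6 pairs of processing conditions (left) and the 3 pairs of inputs (right). Each point is 1 gene, red where the adjusted p by limma is under 0.05, the black line is the median of the family and the dashed blue line the median of all genes tested. The 6 pairs on the left hold no red point, whereas the family stands at 0.69 and 0.70 in the pools against bulk RNA, where all genes stand at -0.86 and -0.79.

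Other parts of the translation machinery were as little changed between conditions. Listed beside the family were Fau and Gnb2l1 (the older symbol of Rack1), which belong to the rest of the cytosolic ribosome. Also listed were 22 transcripts of translation factors and others, and 77 mitochondrial ribosomal protein genes. The 22 were chosen for a pyrimidine start, which was not checked here. In these lists limma called none in any of the 6 pairs or by the F test. In Pre-enriched against Mock the differences of Fau and Gnb2l1 were 0.10 and 0.05, and the medians of the other two lists 0.03 and 0.04.

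The second comparison asked how the family in sorted pools compared with RNA of the bulk line. By the methods of the study, pool libraries were made from lysate of sorted cells and bulk libraries from isolated RNA. Input amount, starting material and handling of the cells therefore cannot be told apart here. The 83 genes held 3.53% and 3.66% of all TPM in bulk RNA, compared with 4.27% to 7.08% (median 5.94%) in 10-cell pools and 4.37% to 7.88% (median 5.96%) in 100-cell pools. All 18 pools stood above both bulk RNA libraries. For 61 of 83 genes (73.5%) both bulk RNA values lay under those of all 18 pools, beside 8.15% of all genes, and for no gene above them, beside 39.2%.

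In 10-cell pools against bulk RNA, 54 of 83 genes (65.1%) rose and none fell at an adjusted p under 0.05 by limma, while 39.5% of all 12231 genes were called, 7.51% higher and 31.9% lower. The median difference was 0.69, beside -0.86 for all genes, and 82 of 83 genes stood above 0. Of the 54 genes 33 belonged to the large subunit and 21 to the small one, with differences of 0.40 to 1.37. In 100-cell pools 46 genes rose (55.4%) and none fell, with 32.3% of all genes called, 7.37% higher and 24.9% lower, and a median of 0.70 beside -0.79.

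These counts leaned on few libraries. Without bulk RNA replicate 1 the counts were 6 for 10-cell and 3 for 100-cell pools, and without bulk RNA replicate 2 they were 9 and 5, with 1 bulk library left that is assumed to vary like the pools, while the medians stayed between 0.67 and 0.72. The 100-cell count was 72 without pools 1 to 3 and 8 without pools 4 to 6, with medians of 1.09 and 0.35. As the shares of all genes called in the fits with libraries left out are not given here, their counts show only this dependence. After quantile normalization, which moved the median of all genes to 0.13 and 0.05, the medians of the family were 0.51 and 0.50.

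Rps27l rose most in both comparisons, by 1.37 (95% interval 0.72 to 2.02, adjusted p = 0.00214 by limma) in 10-cell and 1.41 (0.71 to 2.10, adjusted p = 0.00475) in 100-cell pools. Its level was 1085 and 1175 TPM in bulk RNA and 1742 to 4114 TPM (median 2873) in 10-cell pools, without overlap. Next in 10-cell pools came Rps19bp1 (1.23, 0.83 to 1.63, adjusted p = 0.000142 by limma), at 58.7 and 63.6 TPM in bulk RNA and 114 to 181 TPM (median 149) in the pools. Rps15, a protein of the small subunit, rose by 1.101 (0.61 to 1.59, adjusted p = 0.00142 by limma), from 452 and 462 TPM to 683 to 1259 TPM (median 1016). Rpl5, which with Rpl11 and 5S RNA can bind and inhibit Mdm2, rose by 1.09 (0.66 to 1.51, adjusted p = 0.00057 by limma), from 129 and 135 TPM to 223 to 343 TPM (median 275).

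In 100-cell pools the next genes were Rpl35, Rps15 and Rps14. Rpl35 was at 447 and 465.8 TPM in bulk RNA and at 817, 800, 877, 1646, 1538 and 1350 TPM in pools 1 to 6, a difference of 1.29 (0.74 to 1.84, adjusted p = 0.00205 by limma). Rps15 was at 786, 766, 927, 1447, 1375 and 1245 TPM in the pools (1.21, adjusted p = 0.00225). Rps14, which is studied in the macrocytic anemia of 5q deletion, was at 941 and 980 TPM in bulk RNA and at 1486, 1662, 1856, 3355, 2886 and 2553 TPM in the pools (1.19, adjusted p = 0.00301). For each of these 3 genes pools 4 to 6 were the high ones and pools 1 to 3 still lay above bulk RNA.

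Members with set roles followed the family, with exceptions. Of the stalk proteins Rplp0, Rplp1 and Rplp2, which recruit elongation factors, the differences in 10-cell pools were 0.72, 0.71 and 0.65, all called by limma (adjusted p of 0.00181 to 0.0211). In 100-cell pools Rplp2 missed the threshold (0.58, adjusted p = 0.0561 by limma). Rpl11 rose by 0.72 (adjusted p = 0.0268 by limma) and Rps6, the target of S6 kinases, by 0.60 (adjusted p = 0.0432) in 10-cell pools. Rpsa, the laminin receptor precursor, rose by 0.45 in 10-cell pools (adjusted p = 0.0224 by limma), and its 0.35 in 100-cell pools had an adjusted p of 0.0908. Rpl41, with 25 residues, did not pass in either (0.62 and 0.59, adjusted p of 0.113 and 0.163 by limma), and Rps27a, which is made as a fusion with ubiquitin, passed in 10-cell pools alone (0.73, adjusted p = 0.0473, and 0.74, adjusted p = 0.0658 by limma); whether pools of 10 and 100 cells differ was tested separately below.

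Of the members that did not pass (29 in 10-cell and 37 in 100-cell pools), most still had values above 0. Rpl3 was at 440 and 484 TPM in bulk RNA and 354 to 633 TPM (median 487) in 10-cell pools, a difference of 0.08 (-0.35 to 0.50, adjusted p = 0.782 by limma). In 100-cell pools its difference was -0.14 (-0.60 to 0.31, adjusted p = 0.623 by limma), the 1 value of the family below 0. Rps27 was at 1.08 to 8.96 TPM (median 2.85) in 10-cell pools, with a difference of -0.19 and a wide interval (-1.33 to 0.94). Rpl32 had 0.30 and 0.22 (adjusted p of 0.44 and 0.612 by limma), Rpl7l1 had 0.29 and 0.32, and Rpl22l1 had 0.73 and 0.70, none of which passed.

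Genes related by function differed from list to list. Fau and Gnb2l1 rose in both comparisons by limma, for instance Gnb2l1 by 1.11 (SE 0.17, adjusted p = 0.00012) in 10-cell pools. Of the 22 transcripts listed for a pyrimidine start 4 rose and 1 fell in 10-cell pools and 3 rose and 1 fell in 100-cell pools. Tpt1 rose by 0.94 (SE 0.20, adjusted p = 0.00116 by limma), Eef1b2 by 0.77 (SE 0.19, adjusted p = 0.00331), and Eif4b fell by 1.30 (SE 0.40, adjusted p = 0.0145) in 10-cell pools. Of the 77 mitochondrial ribosomal protein genes, whose proteins serve translation inside mitochondria, 49 and 48 rose and none fell, with medians of 0.79 and 0.91. Beside these lists, 7.51% of all genes rose and 31.9% fell in 10-cell pools, and 7.37% rose and 24.9% fell in 100-cell pools.

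Exonic length, counted over all annotated exons of a gene, moved with this difference over all genes. Genes of at most 1000 exonic bases (418) had a median of 0.33 in 10-cell pools against bulk RNA, those of 1000 to 2000 bases 0.21, those of 2000 to 4000 bases -0.55 and longer ones -1.40. The ribosomal protein genes, with a median exonic length of 1755 bases beside 4275 for all genes, had medians of 0.59, 0.69, 0.74 and 0.58 in the same 4 bins (13, 34, 30 and 6 genes). Thus the family stood above all genes in each bin of exonic length, by the most in the longest. Across its 83 members exonic length had a rho of 0.01 with the difference. Exonic length can far exceed that of the mRNA. The principal transcripts of the members had a median of 740 bases. In the longest bin Rps15a had 6270 exonic bases but a principal transcript of 640. The bins therefore do not compare mRNAs of like length. Among the 2175 genes that reached 100 TPM in each bulk RNA library the median was -0.28. The part of length in the result was not tested. Members with the pyrimidine stretch had a median of 0.69 (33 genes), and those with a RefSeq start but without it 0.70 (29 genes).

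Pools of 10 and of 100 cells were not told apart for the family. No member was called by limma in 10-cell against 100-cell pools (1 of all 12231 genes, 0.00818%), and 5 members (6.02%) had an unadjusted p under 0.05, beside 7.19% of all genes. The median difference was -0.01, beside -0.12 for all genes. The lowest p were those of Rpl8 (0.28, SE 0.10) and Rpl4 (0.24, SE 0.09), both with an adjusted p of 0.57 by limma. Without 100-cell pools 1 to 3 the count of called members became 29, of which 27 were lower and 2 higher in 10-cell pools. Without pools 4 to 6 it stayed at 0, and the medians were -0.41 and 0.33. The shares of all genes called in these fits are not given here, so the counts show only that calls depend on the libraries.

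The 100-cell pools fell into 2 sets, known from earlier results of these data and not from the labels, and they are described with no test. The family held 4.37%, 4.64% and 4.96% of all TPM in pools 1 to 3 and 7.88%, 7.85% and 6.96% in pools 4 to 6. On the log2 scale the median of the members was -0.76 in pools 1 to 3 relative to pools 4 to 6, beside 0.68 for all 12325 genes, and the median SD of a member within a set was at most 0.15. By the ratio of means a typical member was 1.70-fold higher in pools 4 to 6, with a range from 0.702 to 2.24. For 71 of 83 genes (85.5%) pools 1 to 3 all lay under pools 4 to 6, beside 15.9% of all genes. For 1 gene (1.20%) they all lay above, beside 58.8%.

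**Figure D3:**
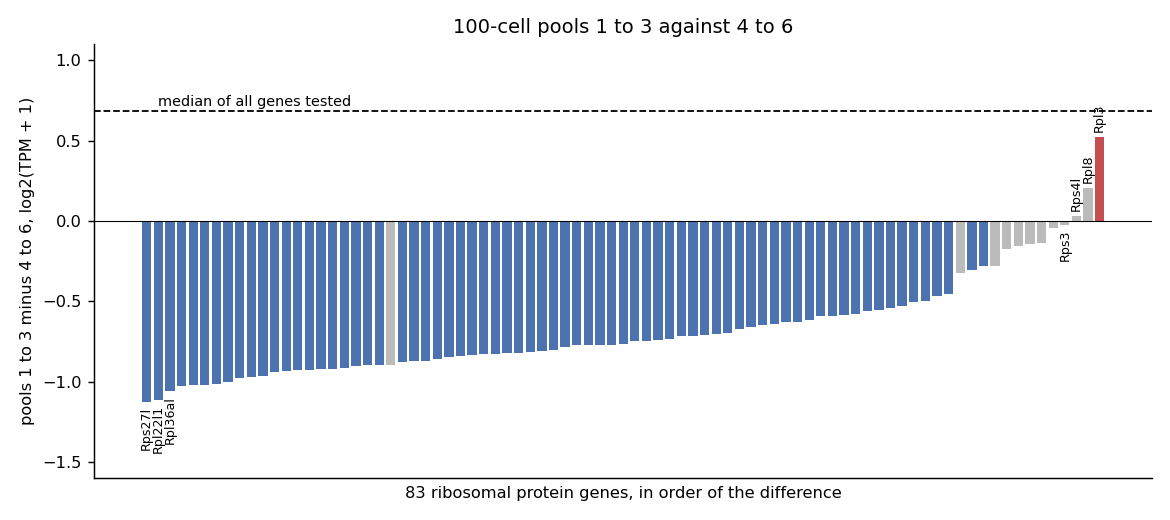
Mean of 100-cell pools 1 to 3 minus mean of pools 4 to 6 in log2(TPM + 1) for each of the 83 genes (bars, in order). Blue bars are genes whose 3 values in pools 1 to 3 all lie under those in pools 4 to 6, the red bar the gene whose values all lie above, grey bars overlap, and the dashed line is the median of all genes tested (0.68). The bars run from -1.13 for Rps27l to 0.52 for Rpl3.

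The largest differences were those of Rps27l, Rpl22l1 and Rpl36al. Rps27l was at 1932, 2008 and 2138 TPM in pools 1 to 3 and at 4934, 4479 and 3921 TPM in pools 4 to 6, a difference of -1.13. Rpl22l1 was at 215, 232 and 218 TPM and at 504, 521 and 424 TPM (-1.12). Rpl36al was at 250, 268 and 290 TPM and at 645, 593 and 460 TPM (-1.06). For each of these 3 genes the lowest of pools 4 to 6 lay above the highest of pools 1 to 3.

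At the other end stood Rpl3, Rpl8 and Rps4l. Rpl3, which lies at the entry to the peptidyl transferase centre, was at 474, 502 and 525.8 TPM in pools 1 to 3 and at 292, 401 and 361 TPM in pools 4 to 6, a difference of 0.52 and the 1 gene of the family with all values above. Rpl8, its neighbour in the large subunit core, was at 597, 624 and 726 TPM and at 497, 614 and 577 TPM (0.21), with overlap. Rps4l was at 38.4, 33.6 and 43.5 TPM and at 36.9, 40.5 and 35.3 TPM (0.03). Rpl4, Rps3, Rps9, Rps2 and Rpl7a also overlapped between the sets, with differences between -0.17 and -0.02. In all, 11 genes overlapped.

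Large and small subunit genes had medians of -0.74 (49 genes) and -0.77 (34 genes), and the 4 X-linked genes -0.80. Members with the pyrimidine stretch had -0.69 and those without it -0.75. The mitochondrial ribosomal protein genes stood lower in pools 1 to 3 as well, with a median of -0.57. Of these 77 genes 53 (68.8%) were lower without overlap, beside 15.9% of all genes, and 11 (14.3%) higher, beside 58.8%. Of the 22 transcripts of translation factors and others 10 (45.5%) were lower and 10 (45.5%) higher without overlap. Their median was -0.01, beside 0.68 for all genes. Short genes moved the same way over the whole table (-0.38 for genes of at most 1000 exonic bases), and genes with at least 100 TPM in bulk RNA moved the opposite way (0.68). Epithelial markers summed to 30178 to 31905 TPM in pools 1 to 3 and 7757 to 11493 TPM in pools 4 to 6, and genes at 1 TPM or more numbered 11488 to 11549 and 10255 to 10400. Blood markers (8 of 26 listed) summed to 44.3 to 69.3 TPM and 46.7 to 156 TPM. The part of these in the difference was not tested.

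Single cells are described by cell, since the labels name no culture and the 11 cells count as 1 sample. The family held 2.45% (single cell 11) to 8.37% (single cell 9) of all TPM, with a median of 5.38%. The lowest sums were those of cells 11, 10 and 7 (2.45%, 3.60% and 3.84%). The listed genes made up 65.1%, 59.1% and 54.2% of the total in these cells, and 65.0% and 65.3% in cells 8 and 5, whose sums were 6.78% and 5.86%. As a share of the listed genes alone the range was 3.77% to 10.4%, with a median of 6.99%.

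The levels varied less between cells for these genes than for most. The SD of log2(TPM + 1) over the 11 cells had a median of 0.69 for the 83 genes and 1.73 for all 12325 genes. Among genes that reached 100 TPM in each bulk RNA library it was 0.68 for 74 members and 1.72 for all 2175. Without single cells 1 to 4 the median of the 83 genes was 0.73. In 10-cell pools the medians were 0.28 for the 83 genes and 0.68 for all genes. Among genes that reached 100 TPM in each bulk RNA library they were 0.27 for members and 0.38 for all. In 100-cell pools, with both sets, the medians were 0.43 for the 83 genes and 0.54 for all genes. The order of the genes in a single cell had a rho of 0.747 to 0.980 with that of bulk RNA, compared with 0.952 to 0.977 in 10-cell pools.

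The steadiest members over 100 TPM in bulk RNA were Rpl23a, at 341 to 1041 TPM (median 562, SD 0.41), and Rpl15, at 134 to 349 TPM (median 209, SD 0.42). Over all 11 cells the 4 X-linked genes had SDs of 3.91 to 4.63, which rest on their zeros in single cells 1 to 4. Over single cells 5 to 11 alone, a choice made after seeing the data, the SD was 0.48 for Rpl10, 0.57 for Rpl36a, 0.81 for Rpl39 and 1.43 for Rps4x, ranks 81, 65, 31 and 4 of the 83 genes from the largest. Among the more variable ones on autosomes, Rps20 ran from 98.5 to 1586 TPM (median 790, SD 1.05) and Rps21 from 88.3 to 853 TPM (median 315, SD 0.98). Rps20 and Rps21 were picked after their values were seen, and their lowest values lay in single cell 11 for Rps20 and in single cell 5 for Rps21.

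**Figure D4:**
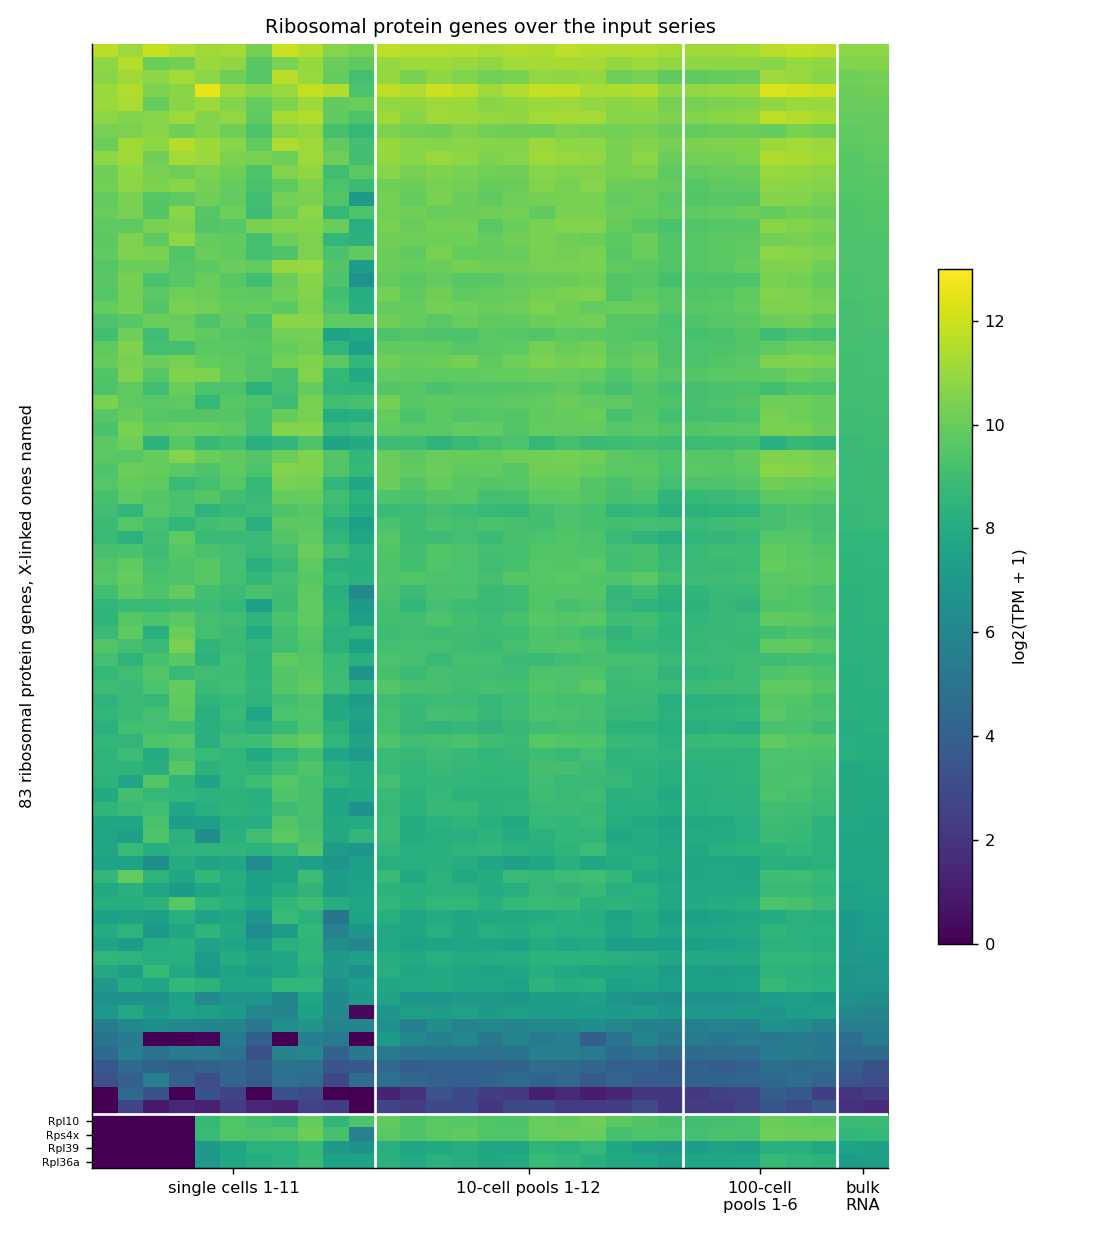
Level of the 83 genes in log2(TPM + 1) (colour) over the 31 libraries of the input series (columns), with genes in the order of their mean in bulk RNA and the 4 X-linked genes, the only ones labelled, in the bottom rows. White lines part the inputs and the X-linked genes. The X-linked genes are at 0 in single cells 1 to 4, and pools 4 to 6 are brighter than pools 1 to 3 for most rows.

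The 4 X-linked members, Rpl10, Rpl36a, Rpl39 and Rps4x, were each listed at 0 in single cells 1 to 4, which makes 16 of the 27 zeros among the 913 values of the family in single cells. How these zeros arose was not tested, and they may not measure expression, since all 47 X-linked genes described above share them. In single cells 5 to 11 none of the 4 was at 0. There Rpl10, which is needed for the late maturation of the large subunit, lay between 379 and 957 TPM, Rps4x between 52.8 and 1066 TPM, Rpl36a between 130 and 440 TPM and Rpl39 between 98.2 and 412 TPM. In all 18 pools the 4 genes were above 0, and in 100-cell pools Rpl10 was at 538, 572, 616, 1073, 988 and 890 TPM. In 10-cell pools against bulk RNA Rpl10 (0.79), Rps4x (0.98) and Rpl36a (0.84) rose, with adjusted p of 0.0151, 0.0047 and 0.0313 by limma, and Rpl39 (0.41, adjusted p = 0.311) did not pass.

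The other 11 zeros fell on Rps27 (5 cells), Rps4l (4 cells) and Rpl30 (2 cells), all under 50 TPM in bulk RNA. None of the 70 autosomal members that reached 100 TPM in each bulk RNA library was at 0 in any cell, whereas of 2075 autosomal genes at that level between 0% and 20.5% were at 0 in a cell (median 4.29%). In the 18 pools no member was listed at 0.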

How the data were processed

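Expression tables of PD798 were analysed for 12 libraries of the processing experiment and 31 of the input series. The authors aligned paired reads of 75 bases from SMART-Seq v4 libraries to mm10 with STAR, counted them with featureCounts, applied EDASeq (upper quartile) and deposited the values as TPM, scaled to a fixed total. The gene annotation and the rule for keeping genes are not given in the sources used here. Columns left unused numbered 0. TPM holds no depth, so no counting error could be given, and the tables, normalized separately, were tested separately.

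The members and gene lists were chosen with earlier results of these data known. log2(TPM + 1) was fitted with limma (version 3.58.1, R 4.3.3, mean-variance trend) for genes reaching 1 TPM in 3 or more of the fitted libraries, and genes were called at a Benjamini-Hochberg adjusted p under 0.05. All 12 processing libraries entered 1 fit, as did the 20 libraries of pools and bulk RNA. Single cells and the sets of 100-cell pools were described with no test.

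Named genes were the 5 members of lowest p in the F test, 2 in each pair of conditions, the 4 of largest change in each direction among those called in each pair of inputs, the 5 highest and 3 lowest in bulk RNA, the 3 at each end of the pool sets, those at 0 in most single cells, the 3 of smallest and largest SD, the X-linked members, paralog pairs, and members with set roles. Of other lists the 3 of lowest p could be named. Autosomal genes of largest SD and the genes overlapping between pool sets were added after their values were seen. Alternatives were a pseudocount of 0.1, no filter or a mean of 5 TPM, no trend, quantile normalization, rescaling over other genes, a replicate block, a fit to only the groups compared, other denominators or member sets, and leaving out libraries. Positions and shared words come from GENCODE on mm10, which held 96.22% of the listed genes and all 84 members. Some items of the study, genes of these lists among them, are not reported here by name.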

Additional observations from a re-analysis of the deposited data

How the results depend on the processing

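For the processing conditions all 139 alternative counts were 0, as in the reported fit. In 10-cell and 100-cell pools against bulk RNA limma without a trend gave 36 and 27 called members, only the 2 groups compared gave 59 and 19, and the replicate number as a block gave 1 and 0. Leaving out either bulk RNA replicate gave 6 to 9 and 3 to 5. Leaving out 100-cell pools 1 to 3 gave 72 in 100-cell pools against bulk RNA and 29 in 10-cell against 100-cell pools, and leaving out pools 4 to 6 gave 8 in the former. The cause was not tested, beyond the smaller number of libraries in these fits, and the shares of all genes called in them are not given here. The pseudocount, filters, quantile normalization and rescaling gave 40 to 54 and 34 to 49, none lower. The labels do not say what the numbers used for the block share. The study sorted FACS-only and Pre-enriched cells from the same sample, but does not say how replicates were numbered. Same-numbered processing libraries had correlations of deviations of -0.042 to 0.229 (median 0.069, beside -0.030 for other pairs). Of these libraries, 9 of 12 correlated best with a library of their own number, a hint from the data. In the input series 0 of 20 did, but 10-cell pools 7 to 12 had no library of their own number to match. In the processing conditions the block left the member counts at 0 and raised those of all genes from 13 to 61 by the F test, from 6 to 37 in Pre-enriched and from 15 to 77 in FACS-only against Pre-FACS, and to between 2 and 7 in the other pairs. Without the X-linked members the median sum was 2.48% in Mock, 2.72% in Pre-enriched and 3.48% in bulk RNA, and without the 3 highest members 2.23%, 2.46% and 3.22%, and 2.22% in FACS-only, by construction. The other 17 of 24 medians of the sum, and all 24 alternative values of the pool-set difference (-0.84 to -0.71) and of the SD over single cells (0.56 to 0.73), the set without single cells 1 to 4 being chosen after seeing the data, moved by less than the spread between replicates or genes. As TPM holds no read numbers, no counting error could be given for members under 10 TPM.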
